A study of Bos taurus with 14 samples.

Results

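Bovine embryos that passed through genome activation in the oviduct of a nonlactating cow (DRY) or a lactating cow (LACT) were compared on Day 4 of development, when they had 16 cells. The samples were the 6 RNA-seq libraries that carry these labels, 3 DRY and 3 LACT, of 14 libraries in the series. In both groups the embryos had been produced in vitro, had been placed on Day 2 into the oviduct of a postpartum dairy cow, and were recovered on Day 4 and pooled by 5. The 5 embryos of a pool came from 1 cow. DRY cows had been dried off at calving, whereas LACT cows were milked, and this is the only labelled difference between the groups. The comparison asks how the metabolic state of the recipient shapes the transcriptome of the embryo. The other libraries were 3 pools of Day-4 embryos kept in in vitro culture (IVC) and 5 pools of Day-2 embryos, which give the levels without an oviduct and before genome activation.

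Early cleavage runs on maternal RNA and protein stored in the oocyte. Embryonic genome activation is the step at which the embryo begins to transcribe its own genes, and in cattle its main wave falls between the stages sampled here. Mitochondria of the cleaving embryo come from the oocyte and supply ATP by oxidative phosphorylation, in which the respiratory chain passes electrons to oxygen and drives ATP synthase. mTOR complex 1 is a kinase that promotes protein synthesis when amino acids, growth factors and energy are available, and it is switched on at the lysosome surface by the Rag GTPases and the Ragulator complex. Its output acts in part on the eIF factors, which assemble the initiator tRNA and the small ribosomal subunit on an mRNA.

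The authors deposited read counts for 27607 Ensembl genes. Total counts ranged from 28465110 to 40357379 in DRY and from 24334519 to 29953316 in LACT, and 3 counts, the smallest signal taken as detected, stood for 0.0743 to 0.123 CPM (counts scaled to a common library size). Library 3 of each group did not carry its own spread. Over 7293 genes with an expected count of at least 200, the squared deviation of DRY 3 from the mean CPM of DRY 1 and DRY 2 had a median of 0.169 times the expected count, where counting error alone gives 0.455. For LACT 3 the median was 0.0255 over 7435 genes. For the median gene DRY 3 and LACT 3 thus lay closer to the average of their companion libraries than the sampling noise, and the same held for 1 IVC library. These libraries were left out of the test, so that each group had n = 2, and their values are shown beside the others. How such libraries arose was not tested.

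The DRY pools differed from each other more, and the LACT pools slightly less, than pools of different groups did. Over the 5837 genes with at least 5 CPM in each of the 4 libraries, the median absolute log2 ratio was 0.65 between DRY 1 and DRY 2 and 0.51 between LACT 1 and LACT 2. Between a DRY and a LACT library it ranged from 0.54 to 0.60 over the 4 pairs. A typical gene therefore differed 1.57-fold between the DRY pools, 1.43-fold between the LACT pools, and 1.46-fold to 1.52-fold between a DRY and a LACT pool.

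**Figure D1:**
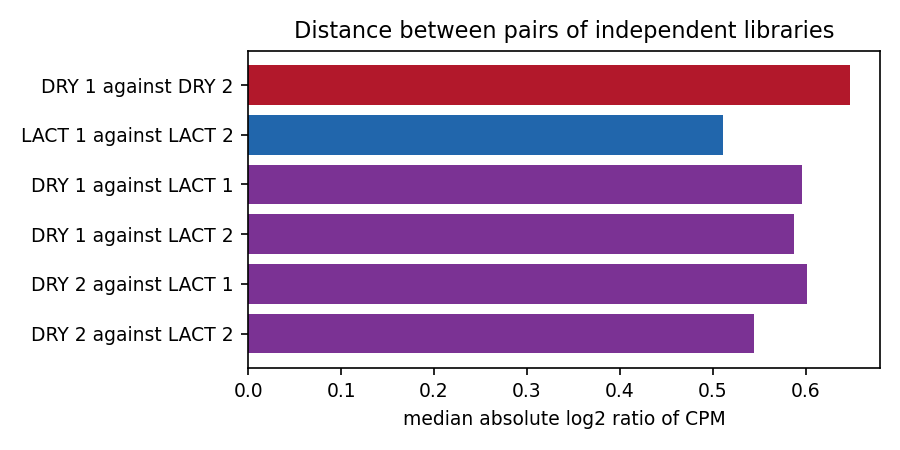
Bars give the median absolute log2 ratio of CPM over 5837 genes for each pair of independent libraries, red within DRY, blue within LACT and purple between the groups. The pair within DRY, at 0.65, is above all 4 pairs between DRY and LACT, which lie from 0.54 to 0.60.

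A small set of genes differed, and most of them were higher in embryos from lactating cows. Of 12133 genes tested, 81 (0.668%) had a false discovery rate (FDR) under 0.05, with 69 lower in DRY (0.569%) and 12 higher in DRY (0.0989%; quasi-likelihood test in edgeR, adjusted by Benjamini-Hochberg). At an unadjusted p under 0.05, 690 genes (5.69%) were lower and 325 (2.68%) higher in DRY. The count rested on few libraries, with 29 genes when DRY 1 or DRY 2 was left out and 47 without LACT 1. When the 3 libraries at the mean were also used, 1165 of 12069 genes (9.65%) passed, 484 (4.01%) higher and 681 (5.64%) lower in DRY, and 78 of the 81 were among them. In that fit the libraries at the mean are counted as further measurements of the spread.

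Nearly all of the 81 were present in 1 group and at the detection limit in the other. The lower group had at most 1 count in either of its libraries for 78 of them. For 76, library 3 of the lower group also had at most 3 counts. The 69 genes lower in DRY had a mean level in LACT of 4.15 to 969 CPM (median 42.4), and the 12 higher in DRY a mean level in DRY of 26.5 to 43950.0 CPM (median 77.0). A looser definition used no test, but at least 5 CPM in both libraries of 1 group and at most 3 counts in both of the other. Of the 12133 genes, 101 were by this definition present in LACT and not in DRY, and 25 in DRY and not in LACT. Of these, 42 and 5 had at least 1 CPM in both independent IVC libraries, and 44 and 8 had a Day-2 mean of at least 1 CPM. LACT 3 had at least 5 CPM for 99 of those 101 genes, and DRY 3 at most 3 counts for 97. DRY 3 had at least 5 CPM for 21 of the 25 genes, and LACT 3 at most 3 counts for 22. Library 3 lay at the mean of libraries 1 and 2 for the median gene. Its agreement with them, here and for the 76, is thus no independent evidence. In 1 of the 81 genes called, mentioned for this after its values were seen, the groups overlapped through library 3, with 742 and 1702 counts in DRY 1 and 2, 1 count in DRY 3, and 1, 1 and 0 in LACT. In bulk RNA from pools, fewer cells with a transcript and less of it per cell cannot be told apart.

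**Figure D2:**
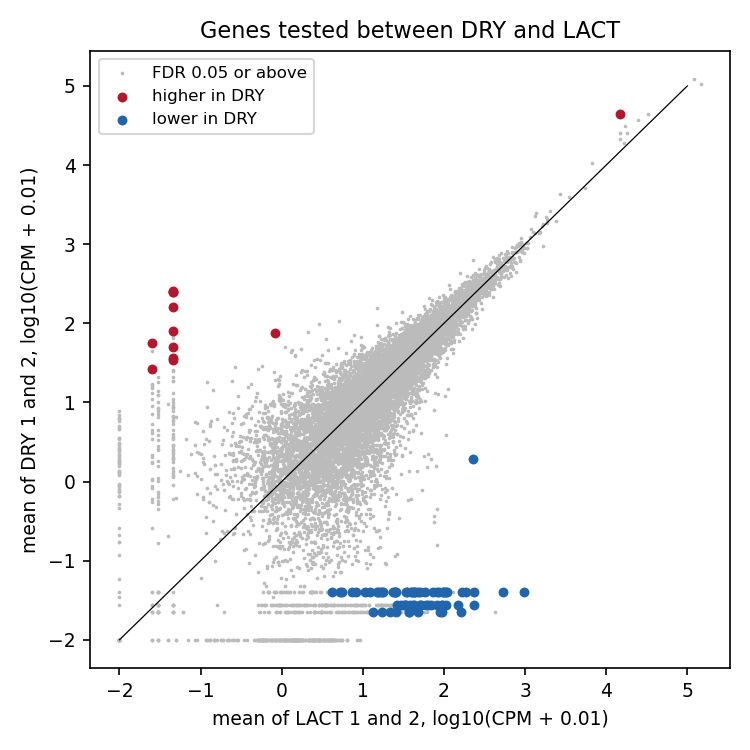
Each point is 1 of 12133 genes, at its mean level in LACT 1 and 2 (horizontal) and in DRY 1 and 2 (vertical), both as log10(CPM + 0.01); coloured points passed an FDR of 0.05. The 69 blue points lie along the bottom, where DRY has at most 1 count, except 1, and the red points are fewer, with 12.

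The low side of these genes was made of single counts. In DRY 1, 1493 genes had exactly 1 count and 215 had 2, and in LACT 1 the numbers were 1192 and 341. Of the 160 tested genes with exactly 1 count in both DRY 1 and DRY 2, 39 passed the test. Of the 294 tested genes with 0 in both, none passed. Genes at 0 in both DRY libraries reached at most 10.7 CPM in the mean of the LACT libraries, whereas genes at 1 in both reached 1172 CPM. The origin of these single counts was not tested.

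The other embryos show where such genes stood without an oviduct and before activation. Of the 81, 43 (53.1%) had at least 1 CPM in both independent IVC libraries, against 78.1% of all genes tested, and 29 had at most 3 counts in both. The mean Day-2 level was at least 1 CPM for 34 (42.0%), against 74.8% of all genes tested, and for 22 no Day-2 library had more than 3 counts. Nearly all of the 81 were at the limit in 1 oviduct group, unlike most genes tested. The shares therefore do not compare like genes, and the lower ones follow in part from how the 81 were selected. Among the 69 lower in DRY, 40 were present in IVC and 22 were at the limit there. Among the 12 higher in DRY, 3 were present in IVC and 7 at the limit. For 12 of the 81 both IVC and Day-2 embryos were at the limit. With the libraries at the mean set aside, these transcripts were above it in 1 oviduct group alone. A gene at the limit in IVC and in 1 oviduct group could enter the test only through the other group. The pattern thus follows in part from the selection, and the shares of all tested genes at the limit are not given here.

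The genes of highest level are named by their Ensembl ID, since the tables used here give no symbols for them. They were chosen among called genes whose DRY and LACT libraries did not overlap, so the lack of overlap is no separate result. ENSBTAG00000018269 was lower in DRY. Its levels in LACT 1, 2 and 3 were 1506, 431 and 874 CPM, its counts in DRY 1, 2 and 3 were 1, 1 and 0, and in the IVC libraries it had at most 1 count. The level in LACT was at least 10644-fold higher than 3 counts per library in DRY (FDR = 4.3e-05, edgeR). The 2 LACT libraries differed widely from each other in this gene, but neither came near those of DRY.

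ENSBTAG00000009614 had the lowest p of all genes tested. It had 584, 487 and 501 CPM in LACT 1, 2 and 3, against counts of 1, 1 and 0 in DRY, and at most 1 count in the IVC libraries. The LACT level was at least 5880.1-fold higher (FDR = 1.7e-05, edgeR). Day-2 embryos had a mean of 1.20 CPM, with pools from 0 to 3.25 CPM. The LACT pools were close to each other in this gene.

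ENSBTAG00000048956 showed the opposite direction. DRY 1, 2 and 3 had 189, 326 and 239 CPM, and LACT had counts of 1, 1 and 0. The DRY level was at least 2430.4-fold higher (FDR = 5.3e-05, edgeR) and at least 2112.0-fold higher than the limit in IVC. On Day 2 the mean was 8.24 CPM, but the pools ranged from 0.156 to 18.6 CPM. The transcript was thus present before activation, though not at a like level in every pool, and was found on Day 4 in the DRY libraries alone.

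Of the 81 genes, 3 had more than 3 counts in library 1 or 2 of the lower group. ENSBTAG00000043561, which the study's annotation places under the mitochondrial inner membrane, was among the most abundant transcripts of the embryo, with 44308, 43591 and 39118 CPM in DRY 1, 2 and 3 and 16480, 12841 and 13554 CPM in LACT 1, 2 and 3. The IVC libraries, at 14121 to 17087 CPM, lay close to LACT. The gene was 2.99-fold higher in DRY (log2 fold change 1.58 ± 0.27 (SE, n = 2 against 2), FDR = 0.0244, edgeR). The call was lost when any 1 of DRY 1, DRY 2, LACT 1 and LACT 2 was left out (FDR 0.102 to 0.246) and when genes needed 10 counts in every library (FDR = 0.0549), whereas the log2 fold change stayed between 1.41 and 1.77. Of the other two, a gene with 129 and 20.7 CPM in DRY 1 and 2 had 0.566 and 1.05 CPM in LACT. The last had 2.75 and 1.13 CPM in DRY and 304 and 156 CPM in LACT, and at most 1 count in IVC. These descriptions of the other two were chosen after their values were seen.

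Genes listed under oxidative phosphorylation had higher levels in DRY than in LACT, but none passed the test. The 9 genes of oxidative phosphorylation are those that the study lists with an Ensembl ID and a symbol, and the study chose them for differences on these samples, so their direction is not independent evidence. All 9 were higher in both independent DRY libraries than in both LACT libraries, as were 16.2% of all genes tested. The fold difference ranged from 1.57 to 3.57 (median 1.83), 6 had an unadjusted p under 0.05 (2.68% of all genes were higher at that level) and 0 an FDR under 0.05, with a lowest FDR of 0.431 (edgeR). DESeq2 called 1 of the 9, ATP5MF (FDR = 0.0298), where it called 114 of 12133 genes as higher in DRY. The edgeR fit with all 9 Day-4 libraries called 8, where 4.01% of all genes passed as higher in DRY. In every fit that left out a library the 9 remained higher in DRY.

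The 4 of these genes that the nuclear genome encodes differed most. ATP5MF, a subunit of the membrane part of ATP synthase, had 102, 81.6 and 81.1 CPM in DRY 1, 2 and 3, against 36.6, 29.8 and 30.7 CPM in LACT (log2 fold change 1.47 ± 0.47 (SE), FDR = 0.438, edgeR). The IVC libraries had 65.7 to 93.9 CPM, level with DRY. SDHD, a membrane anchor of succinate dehydrogenase, the enzyme shared by the citric acid cycle and the respiratory chain, had 107, 75.7 and 80.2 CPM in DRY and 40.6, 28.0 and 31.6 CPM in LACT (log2 fold change 1.41 ± 0.51 (SE), FDR = 0.526, edgeR). For both genes the LACT libraries were the low ones, with both independent IVC libraries above them.

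COX11, which helps to insert copper into cytochrome c oxidase, had 46.2, 56.5 and 46.3 CPM in DRY and 13.8, 14.9 and 13.4 CPM in LACT. Its log2 fold change was 1.84 ± 0.66 (SE), with an FDR of 0.521 (edgeR). ATP6V0A2, a subunit of the proton pump that acidifies lysosomes and other vesicles and no part of the respiratory chain, had 24.7, 41.2 and 30.4 CPM in DRY and 9.09, 13.8 and 10.8 CPM in LACT (log2 fold change 1.52 ± 0.74 (SE), FDR = 0.623, edgeR). COX11 was close between the pools of each group, while ATP6V0A2 differed 1.67-fold between DRY 1 and DRY 2.

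The 5 genes of the mitochondrial genome on the list were far more abundant and differed less, 1.57-fold to 1.83-fold. COX3, a core subunit of cytochrome c oxidase, had 33296, 28457 and 27315 CPM in DRY 1, 2 and 3 and 19594, 14167 and 15562 CPM in LACT (log2 fold change 0.87 ± 0.28 (SE), FDR = 0.431, edgeR). CYTB, the cytochrome b of complex III, had 24916, 25987 and 22719 CPM in DRY and 17438, 12544 and 13818 CPM in LACT (log2 fold change 0.76 ± 0.28 (SE), FDR = 0.528, edgeR). In both genes IVC lay near the upper end of LACT, at 16106 to 18587 CPM for CYTB and 20022 to 20891 CPM for COX3.

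ATP8, a small subunit of ATP synthase, had 2684.9, 2217 and 2165.5 CPM in DRY and 1434, 1305 and 1273 CPM in LACT. ND6 and ND4L, subunits of complex I, had 10759, 10214 and 9318 CPM and 4511, 3992 and 3766 CPM in DRY, and 7977, 5214 and 6057 CPM and 3233, 2160 and 2478 CPM in LACT. All 5 mitochondrial genes were higher in both independent DRY libraries than in both of IVC, as were 16.1% of all genes tested. ATP8 and ND4L overlap their neighbours and ND6 lies on the strand opposite to most mitochondrial genes, and since the strand setting of the counting is not given in the sources used here, their reads may include those of other genes.

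Shares were also taken of the total counts of each library, without the TMM scaling behind the CPM. Such a share still depends on the other genes of the library. The 5 mitochondrial genes together took 6.82%, 7.02% and 6.85% in DRY 1, 2 and 3, and 4.69%, 3.92% and 4.29% in LACT. The IVC libraries had 4.70% to 4.90%. The largest 95% Wilson interval was ± 0.00928 percentage points, which covers counting error only. ENSBTAG00000043561 took a further 3.97% to 4.32% in DRY and 1.42% to 1.56% in LACT. With 2 independent libraries a group, no exact permutation test on such shares could pass 0.05, and none was run.

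**Figure D3:**
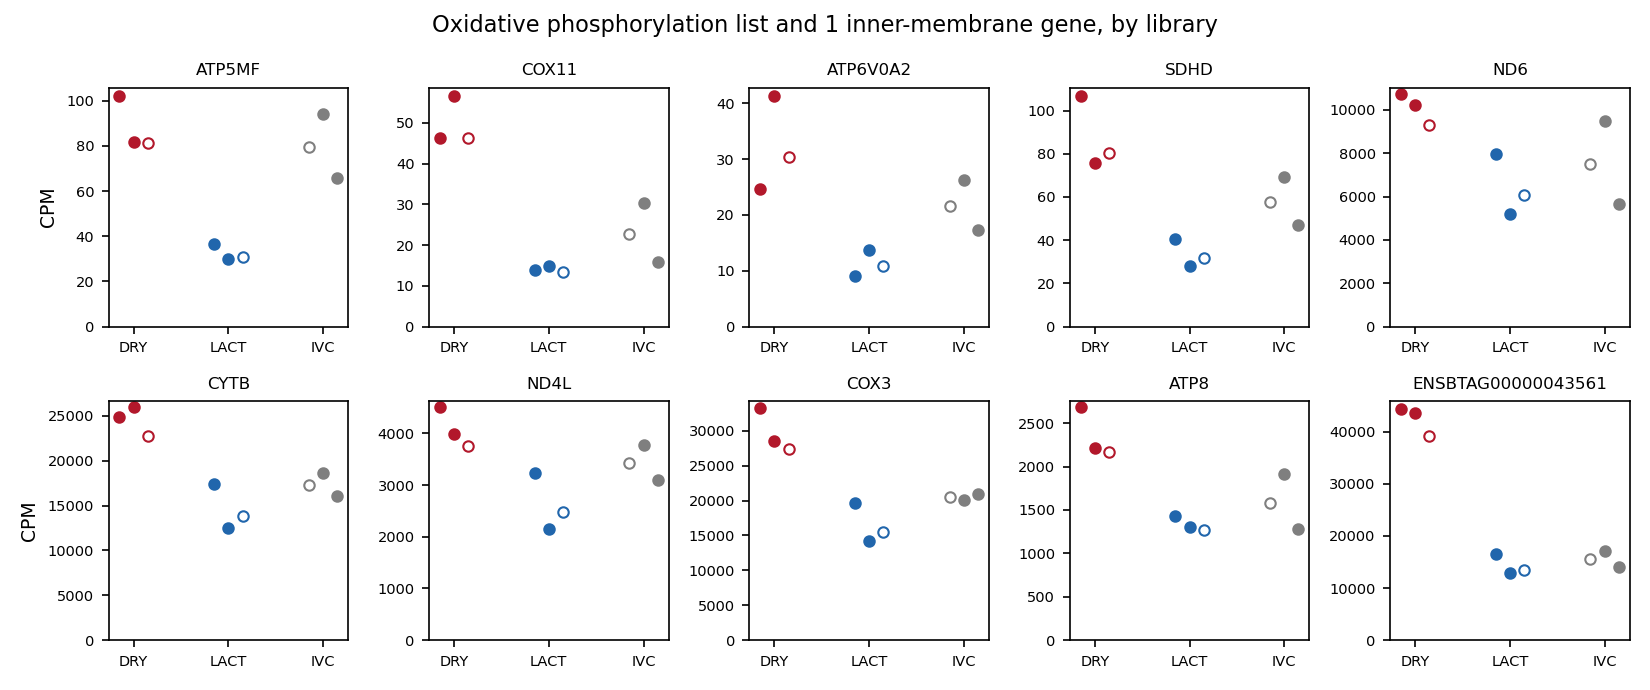
Each panel gives the level of 1 gene in CPM (linear axis from 0) in the DRY, LACT and IVC libraries, with filled points for the independent libraries and open points for those at the mean of the others. In each of the 10 genes the filled DRY points are above the filled LACT points, and for ENSBTAG00000043561 the IVC points, at 14121 to 17087 CPM, lie at the level of LACT.

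The 10 mTOR pathway genes of the same list that are reported here had a positive log2 fold change, from 0.34 to 4.37 (median 1.18), and none passed the test (lowest FDR 0.586, edgeR). An unadjusted p under 0.05 was found for 1 of them, LAMTOR4. In 8, both independent DRY libraries were above both LACT libraries, an order found in 16.2% of all genes tested. In all 10, both DRY libraries were above both independent IVC libraries, which held for 16.1% of all genes tested, and the IVC mean was the lowest of the Day-4 groups. Pools of the same group were far apart for several of them, with up to 7.96-fold between DRY 1 and DRY 2 and 49.7-fold between LACT 1 and LACT 2. The study took these genes from a cluster chosen for higher levels in DRY than in the other Day-4 groups of these samples. Their direction and their order against IVC thus follow in part from that choice and are no independent evidence.

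At the lysosome, LAMTOR4, a subunit of the Ragulator, had 23.8, 189 and 110 CPM in DRY 1, 2 and 3, against 0.202, 10.04 and 4.51 CPM in LACT. Its log2 fold change was 4.37 ± 1.77 (SE), with an FDR of 0.586 (edgeR), and moved from 2.21 to 9.01 as single libraries were left out. In IVC it was listed at no more than 0.0441 CPM, which is under the limit of 3 counts. The DRY libraries did not overlap with those of LACT, but within each group 1 pool held most of the signal.

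RRAGD and RRAGB encode Rag GTPases, which recruit mTOR complex 1 to the lysosome. RRAGD had 25.03, 18.3 and 19.1 CPM in DRY and 2.99, 6.24 and 4.39 CPM in LACT (log2 fold change 2.23 ± 1.20 (SE), FDR = 0.679, edgeR). RRAGB had 54.2 and 12.1 CPM in DRY 1 and 2 and 11.8 CPM in each of LACT 1 and 2, so that 1 DRY pool carried its difference and the other matched LACT. SLC38A9, the amino acid transporter that reports lysosomal arginine, had 8.27 and 30.4 CPM in DRY 1 and 2 and 6.59 and 10.6 CPM in LACT 1 and 2. Without DRY 2 its log2 fold change was -0.059.

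Among the sensors and inhibitors upstream of the kinase, SESN2, a leucine sensor that restrains mTOR complex 1, had 42.1 and 7.28 CPM in DRY 1 and 2 and 4.24 and 11.5 CPM in LACT 1 and 2, with a log2 fold change of 1.64 ± 1.18 (SE), and of -0.12 without DRY 1. MIOS, a subunit of the GATOR2 complex that relays the amino acid signal, had 58.4 and 52.5 CPM in DRY and 25.1 and 51.0 CPM in LACT. TBC1D7, a subunit of the inhibitory TSC complex, had 27.0 and 23.3 CPM in DRY and 10.5 and 22.2 CPM in LACT. In both of these, LACT 2 was level with DRY and LACT 1 was low. AKT1S1, an inhibitory partner of mTOR complex 1, had 29.5 and 59.2 CPM in DRY and 11.8 and 27.0 CPM in LACT.

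The remaining mTOR genes differed least. RICTOR, the defining subunit of mTOR complex 2, had 187 and 138 CPM in DRY 1 and 2 and 102 and 129 CPM in LACT 1 and 2. TTI1, which assists the assembly of the complexes, had 31.8 and 30.2 CPM in DRY and 27.8 and 21.0 CPM in LACT. Restraining and activating members of the pathway had log2 fold changes of the same sign, which follows in part from the choice of genes higher in DRY. None of the differences between DRY and LACT passed the test. Several of the 10 genes were abundant before genome activation. Mean Day-2 levels were 104 CPM for RRAGD, 84.2 for SESN2, 82.7 for RICTOR, 68.1 for MIOS and 36.1 for TBC1D7. They were 31.6 CPM for AKT1S1, 26.1 for SLC38A9, 8.62 for TTI1, 1.58 for LAMTOR4 and 0.0062 for RRAGB. Some of these means cover a wide spread, with Day-2 pools from 37.7 to 227 CPM for RRAGD, 8.50 to 74.0 for TBC1D7 and 5.21 to 78.1 for AKT1S1. Others were narrower, such as MIOS (56.4 to 82.7 CPM) and SLC38A9 (20.7 to 33.6 CPM).

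The 6 eIF genes of the list were close between the groups, with log2 fold changes from -0.61 to 0.03 (median -0.31). None passed the test, and 0 had an unadjusted p under 0.05 (lowest FDR 0.820, edgeR), nor did any pass with all 9 libraries or with DESeq2. EIF2S1, the alpha subunit of the factor that carries the initiator tRNA, had 72.0, 89.7 and 72.8 CPM in DRY and 153, 93.2 and 113 CPM in LACT (log2 fold change -0.61 ± 0.43 (SE)). EIF3E and EIF3B, subunits of the eIF3 scaffold, were also below LACT in both DRY libraries, with means of 179 against 231 CPM and 61.4 against 82.3 CPM. Both DRY libraries were below both of LACT for 18.3% of all genes tested.

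EIF3F had means of 69.7 CPM in DRY and 67.9 CPM in LACT. EIF3J and EIF3CL, with 84.5 against 100.0 CPM and 91.3 against 107 CPM, overlapped between the groups, and EIF3CL has a near-identical copy with which reads may be shared. The mean of the independent IVC libraries was the highest of the Day-4 groups for all 6, from 132 CPM for EIF3B to 314 CPM for EIF3E. The study took these genes from a cluster with the highest levels in IVC, then LACT, then DRY on these samples. The order of the groups is thus no independent evidence. The signs for EIF3J, EIF3F and EIF3CL turned in fits that left out a library.

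**Figure D4:**
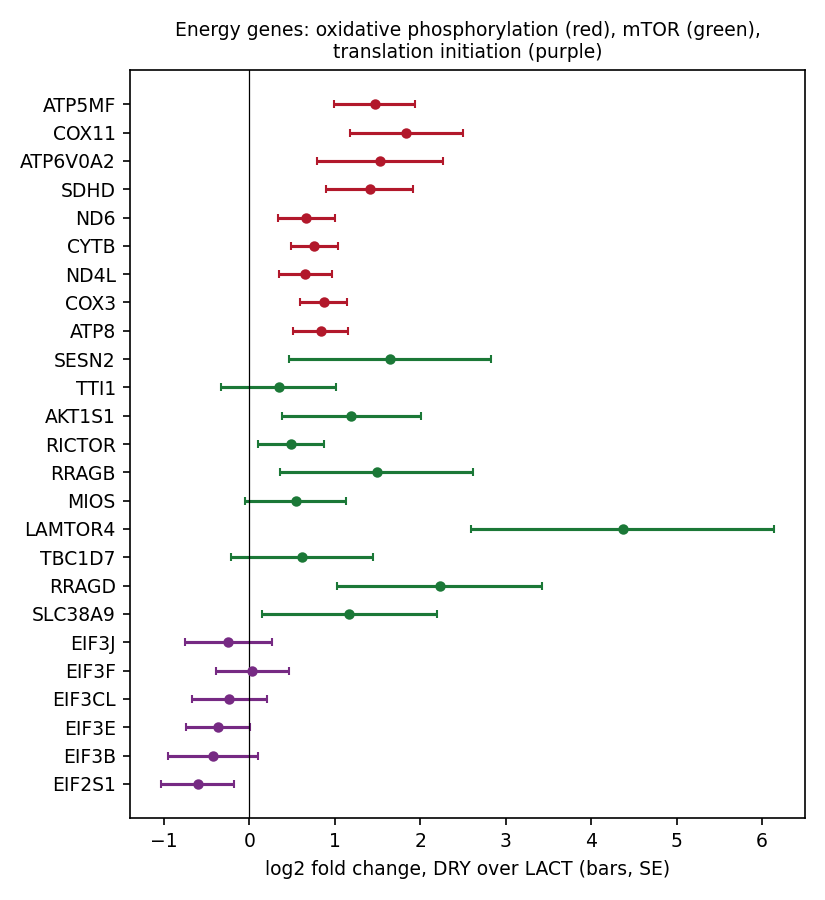
Points give the log2 fold change of DRY over LACT for the 25 energy genes and bars its SE, from the fit with 2 independent libraries a group. The 9 genes listed under oxidative phosphorylation (red) and the 10 of the mTOR pathway (green) are right of 0, the latter with wide bars, and the 6 eIF genes (purple) lie from -0.61 to 0.03; none passed an FDR of 0.05.

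Lists of genes under 19 annotation terms were read by Ensembl ID from the study's enrichment results, which show at most 20 IDs for a term in a cluster of genes. Where a term appeared in several clusters, its IDs were pooled, whatever the direction of those clusters. The balance of signs in a list thus depends in part on which clusters it came from. Some lists hold genes that the study chose for a change between Day 2 and Day 4 with no difference among the Day-4 groups, and others hold genes chosen for a difference among the Day-4 groups on these samples. The medians of both kinds follow in part from that choice and are no independent evidence. They are set beside the median of all genes tested, -0.03.

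Among genes chosen for Day-4 differences, those of the citric acid cycle, which feeds electrons to the respiratory chain, had a median log2 fold change of 1.66, with 5 of 5 higher in both DRY libraries and 4 with an unadjusted p under 0.05. The 9 genes of the lysosome, the organelle that breaks down cell material and hosts mTOR complex 1, had a median of 1.83, and 5 had an unadjusted p under 0.05. The 7 genes of the mitochondrial inner membrane had a median of 1.58 and held the 1 gene called, ENSBTAG00000043561. For 8 genes of DNA repair the median was 1.32, and for 19 of the cell cycle 0.76. Over all genes tested, 16.2% were higher in both DRY libraries and 2.68% were higher at an unadjusted p under 0.05. In these 5 lists every gene had a positive log2 fold change, and apart from the inner-membrane gene none passed the test.

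In the other direction, the 40 oxidoreductases, enzymes that transfer electrons between substrates, had a median log2 fold change of -2.66, with 38 lower in DRY, 12 with an unadjusted p under 0.05 and 2 that fell at an FDR under 0.05 (edgeR). Over all genes tested, 5.69% were lower in DRY at that p and 0.569% at that FDR. The 9 genes of fatty acid metabolism were all negative, with a median of -2.73 and 1 that fell at an FDR under 0.05, a gene that is also among the oxidoreductases. When 10 counts were required in every library, which removes the genes at the limit in DRY, the medians were -1.70 and -1.10. The 27 ribosomal genes chosen for Day-4 differences were all negative by a small amount (median -0.39), and 19 were below LACT in both DRY libraries, against 18.3% of all genes tested. Of 26 genes of the Golgi apparatus, 25 were positive (median 0.61) and the other fell at an FDR under 0.05.

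Lists of mixed sign were those of the endoplasmic reticulum, with 34 of 61 negative (median -0.19), and methylation, with 26 of 41 positive (median 0.48). Zinc finger proteins, with 37 of 55 positive (median 0.53), and the nucleosome, with 15 of 22 positive (median 0.41), were also mixed. For the endosome, 16 of 16 were positive (median 0.61). None of these 5 held a gene with an FDR under 0.05 (edgeR). At an unadjusted p under 0.05, the endoplasmic reticulum had 11 genes lower and 2 higher in DRY, zinc finger proteins 2 lower and 5 higher, methylation 3 higher, the nucleosome 2 higher and the endosome 0, beside 5.69% lower and 2.68% higher over all genes tested.

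Lists drawn from genes that the study assigned to genome activation as such stayed near the median of all genes. The 20 genes of oxidative phosphorylation in these lists had a median of 0.10 with 11 positive, against 0.87 with 9 of 9 positive among those chosen for Day-4 differences. Those of the ribosome had -0.07, the lysosome 0.02, the mTOR pathway 0.22, translational initiation 0.00, the mitochondrial large ribosomal subunit 0.01, the cell cycle 0.25 and DNA repair 0.27. The 48S preinitiation complex had -0.04, the mitochondrial inner membrane 0.10, the endoplasmic reticulum 0.08, methylation 0.15 and zinc finger proteins 0.08. None of the genes in these lists had an FDR under 0.05 or an unadjusted p under 0.05 (edgeR).

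**Figure D5:**
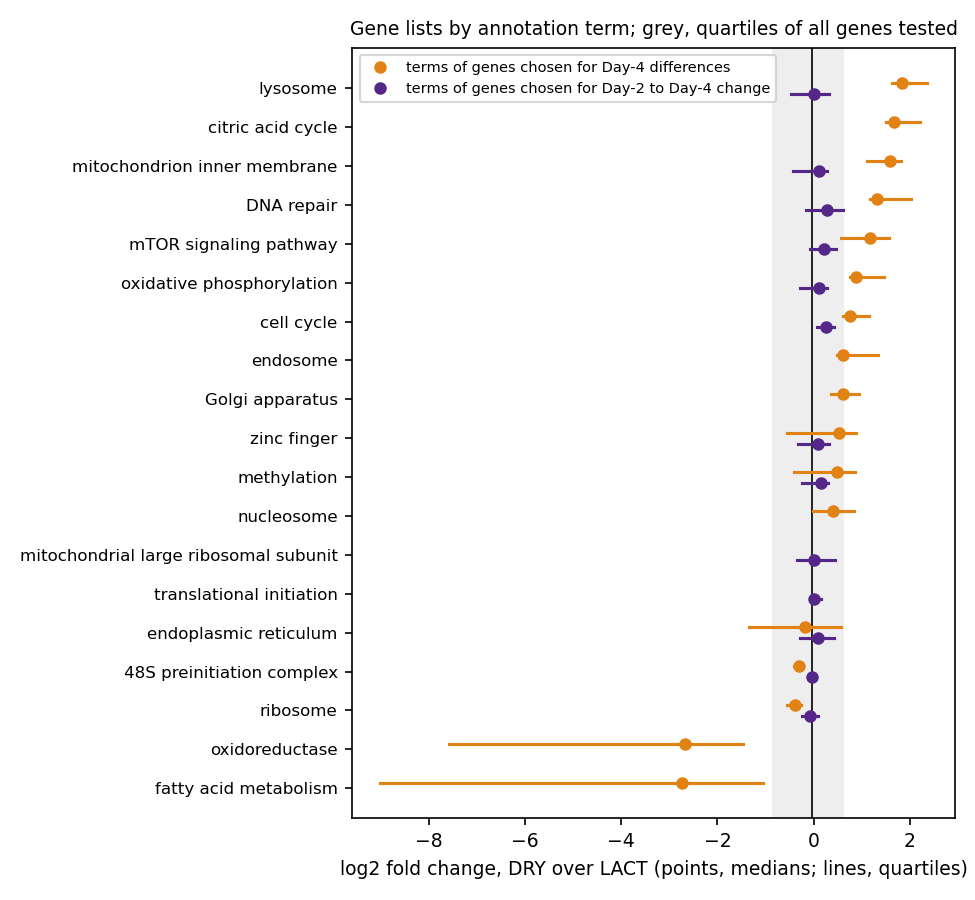
Points give the median log2 fold change of DRY over LACT for each list and lines its quartiles, orange for genes chosen for Day-4 differences and purple for genes chosen for a change from Day 2 to Day 4, with the quartiles of all genes tested in grey. The orange points spread from -2.73 to 1.83, and the purple points stay between -0.07 and 0.27.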

How the data were processed

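RNA-seq libraries were made from pools of 5 embryos, with a kit that keeps the strand and without selection of polyadenylated RNA. The authors deposited whole-number read counts for Ensembl genes, with no normalization stated. Reads had been trimmed (Trimmomatic), aligned to bosTau9 (STAR 2.7.0b) and assigned to genes (featureCounts, Subread 2.0.3); the annotation release is not given in the sources used here. Groups came from the labels. The members and lists were chosen with earlier results of these data known.

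Genes that reached 1 CPM in 2 or more of DRY 1, DRY 2, LACT 1, LACT 2, IVC 2 and IVC 3 were scaled with TMM and fitted with 1 coefficient per group in edgeR 4.0.16 (robust quasi-likelihood test, R 4.3.3), and p-values were adjusted by Benjamini-Hochberg over all genes tested. IVC served to share the estimate of the spread. Each SE given is the absolute log2 fold change divided by the square root of the F statistic of that test. It therefore rests on a spread shared over genes and with IVC, not on the DRY and LACT libraries of the gene alone. The script was checked on simulated counts. CPM shown for Day 4 are after TMM over 9 libraries, and those for Day 2 over 14. A fold against a group at or under 3 counts was computed against 3 counts per library and is a lower bound.

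Genes were named by rule: the 25 energy genes analysed here that the study pairs with symbols (1 more is not reported here), and at most 2 called genes in each direction, those of highest mean CPM without overlap. Gene lists and cell type markers defined by symbol were not analysed here, for want of symbols for the Ensembl IDs, and sequences were not analysed here. Whether p-values cover more than the spread between these pools, each from 1 cow, is not known. Alternatives were the fit on all 9 Day-4 libraries, fits without IVC, DESeq2 1.42.0 and its size factors, a likelihood ratio test with observation weights, other filters, leaving out the 10 genes of highest counts, a replicate block, a threshold of 0.01 on the FDR, and the omission of each library in turn.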

Additional observations from a re-analysis of the deposited data

Results flagged for a closer look

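For the median gene with an expected count of at least 200, DRY 3 and LACT 3 lay at the average of their companion libraries, yet they held reads of genes that those libraries lacked. The test behind the counts of genes did not use these libraries. In DRY 3, 1071 genes had more than 3 counts while DRY 1 and DRY 2 had 0. These counts had a median of 17 and a maximum of 578 and summed to 0.146% of the library. In LACT 3 there were 1139 such genes, with a median of 14 and a maximum of 415 counts, which summed to 0.123% of the library. The cause was not tested.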

How the results depend on the processing

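The count of 81 genes between DRY and LACT depended on which libraries and which test were used. It was 1165 with all 9 Day-4 libraries, 912 with the 6 DRY and LACT libraries and no IVC, 497 with DESeq2's own test, 404 with the likelihood ratio test with observation weights and 1924 when that test used all 9 libraries. Without a filter it was 491 of 19145 genes, and with at least 10 counts in every library 1 of 8581, a gene not among the 81. That filter removes the genes at the limit in 1 group. At an FDR under 0.01 the count was 44. Leaving out each library in turn gave 29 to 97 genes, where a group left with 1 library is assumed to vary like the others. With the replicate number as a block the count was 125, and 562 with all 9 libraries. The deviations of DRY 1 and LACT 1 from their group means had r = 0.03 over 7947 genes. What same-numbered libraries share beyond the number is not labelled and was not tested. DESeq2's size factors (80), the 4 DRY and LACT libraries without IVC (75) and leaving out the 10 genes of highest counts (77) changed the count by less than 1.5 times. Of the 75 genes called without IVC, 62 were among the 81. Which genes passed also changed as single libraries were left out.

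Some log2 fold changes turned sign, none of them past the threshold in either fit. EIF3F was -0.0094 with at least 10 counts in every library. As single libraries were left out, the values ranged from -0.12 to 2.53 for SESN2, from -0.059 to 1.82 for SLC38A9, from -1.05 to 0.28 for EIF3J, from -0.12 to 0.20 for EIF3F and from -0.76 to 0.14 for EIF3CL; the turned values were -0.12 for SESN2, -0.059 for SLC38A9, 0.27 and 0.28 for EIF3J, -0.12 for EIF3F and 0.14 for EIF3CL. Of the 25 energy genes, 9 passed with all 9 libraries, where 1165 of 12069 genes (9.65%) passed. With the likelihood ratio test on those libraries 11 passed, beside 1924 of 12069 genes. DESeq2 called 1, beside 497 of 12133 genes. Without a filter 1 passed (LAMTOR4), beside 491 of 19145 genes. Depth sets the limit of 3 counts for genes present in only 1 of DRY and LACT.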
